A study of Mus musculus with 6 samples.

Results

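The strongest Ikaros sites outside protein-coding gene bodies were 6 places on the DNA of mouse natural killer (NK) cells, found by the gene names that the authors gave their peaks. The sites are called here by those names, Lrp2bp, Gm48821, Gm21987, Cldn12, Gm25207 and Gp6. Of the peaks listed for wild type (WT) replicates 1, 2 and 3, 6 of 685, 8 of 2084 and 6 of 1342 carried one of these names. After overlapping peaks of the 3 lists were merged, these 20 peaks made 8 of 2526 regions. Of the 8, 6 were strong and present in all lists, and 2 were weak and present in replicate 2 alone. Chromatin immunoprecipitation with sequencing (ChIP-seq) for Ikaros had been done on 3 samples of NKp46-conditional Ikzf1 knockout (KO) NK cells and 3 of WT NK cells, all from spleen. NKp46 is the NK cell receptor encoded by Ncr1, so the deletion is meant for cells that express it. Cells of both genotypes were expanded in culture with IL-15 at 50 ng/ml, fixed for 10 min in 2% formaldehyde and precipitated with 2 µg of an anti-Ikzf1 antibody. The KO libraries were not analysed here, so no value below compares genotypes. Whether the signal at these sites is lost without Ikzf1 was therefore not tested. The labels do not say whether replicates came from separate animals or cultures, so their spread may be technical.

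Ikaros, the product of Ikzf1, is a zinc finger protein of lymphoid cells that binds DNA at short motifs with a GGGAA core and can work with activating or repressing chromatin complexes. Transcription factors bind at gene starts, inside genes and in the stretches between genes, and a site between genes can act on a gene that is not its nearest neighbour. The name that a peak list gives to such a site is therefore a label and not a known target, and Ikaros sites of all these kinds are known in lymphocytes.

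No genome sequence was used here for the 6 strong sites themselves. Of all 20 peaks, the 2 weak ones of replicate 2 reached promoter windows in the RefSeq table (build GRCm38.p6, the assembly also called mm10), which run from 250 bases before to 50 after a gene start. These windows are shown because they hold the parts of the peaks whose letters can be read, along with bases outside the peaks. Capitals mark each GGGAA or its reverse complement TTCCC. The first is the Cldn12 window most covered by the peak, chr5:5514740-5515039, and the second is that of Ankrd37, chr8:45999801-46000100, both on the minus strand and printed 5′ to 3′.
Cldn12: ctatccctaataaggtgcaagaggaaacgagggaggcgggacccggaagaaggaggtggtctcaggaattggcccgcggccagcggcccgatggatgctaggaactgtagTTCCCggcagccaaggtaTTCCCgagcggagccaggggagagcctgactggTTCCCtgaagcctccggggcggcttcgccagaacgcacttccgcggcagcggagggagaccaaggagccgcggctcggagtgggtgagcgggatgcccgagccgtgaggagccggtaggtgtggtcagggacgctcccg
Ankrd37: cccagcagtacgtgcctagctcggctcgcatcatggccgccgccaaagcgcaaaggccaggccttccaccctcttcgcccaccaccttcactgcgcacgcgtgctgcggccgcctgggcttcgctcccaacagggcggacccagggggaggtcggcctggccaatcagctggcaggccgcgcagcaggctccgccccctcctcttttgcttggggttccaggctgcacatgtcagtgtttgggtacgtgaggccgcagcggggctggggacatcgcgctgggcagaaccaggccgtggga

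The Cldn12 window held 3 GGGAA cores, all on the strand opposite to the one printed and all within the 227 bases that the peak covered. Of 32851 promoter windows of this length in the table, 62.7% held at least 1 such core and 8.83% held 3 or more. The Ankrd37 window, covered over 183 bases, held none. The longer Ikaros motif TGGGAA, which contains GGGAA, was in neither window, against 25.6% of all windows. The AP-1 motif TGANTCA was in neither window, against 7.81% of all. The RUNX motif TGTGGT was in the Cldn12 window 1 time and not in the other, against 16.8% of all. GGAAG, an ETS motif that can overlap GGGAA, matched 2 times in the Cldn12 window and 1 time in that of Ankrd37, and was in 71.4% of all windows. Both strands of the whole windows were searched, including bases that the peaks did not cover, and a match is a description of the letters only.

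Fold enrichment, the authors' linear ratio for each peak in its own call, chose the 6 sites, so strength is described here and not tested. The site named for Lrp2bp, which encodes a protein that binds the endocytic receptor megalin, lay on chromosome 8, 46030703 to 46031613. Its peaks were enriched 46.4, 85.2 and 57.9 fold in replicates 1, 2 and 3. They ranked 1, 1 and 2 in their lists, so this was the site at the head of replicates 1 and 2. The −log10 q of the authors was 164, 342 and 238. A peak inside Tiam1 was the 1 peak that ranked higher, in replicate 3.

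The site named for the lincRNA Gm48821, on chromosome 9, 84970377 to 84971581, was enriched 40.8, 59.7 and 50.3 fold in replicates 1, 2 and 3. Its ranks were 3, 4 and 4. The site named for Gm21987, on chromosome 16, 38353067 to 38353712, was enriched 37.2, 63.3 and 57.4 fold, with ranks of 4, 3 and 3. These 2 sites changed places between replicate 1 and the other replicates. In each list, 3 of the first 4 peaks were thus the Lrp2bp, Gm48821 and Gm21987 sites, and Tiam1 held the remaining place. Fold enrichment of the peak at rank 4 was 1.81, 1.22 and 1.38 times that at rank 5, so the step below these peaks was widest in replicate 1.

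**Figure D1:**
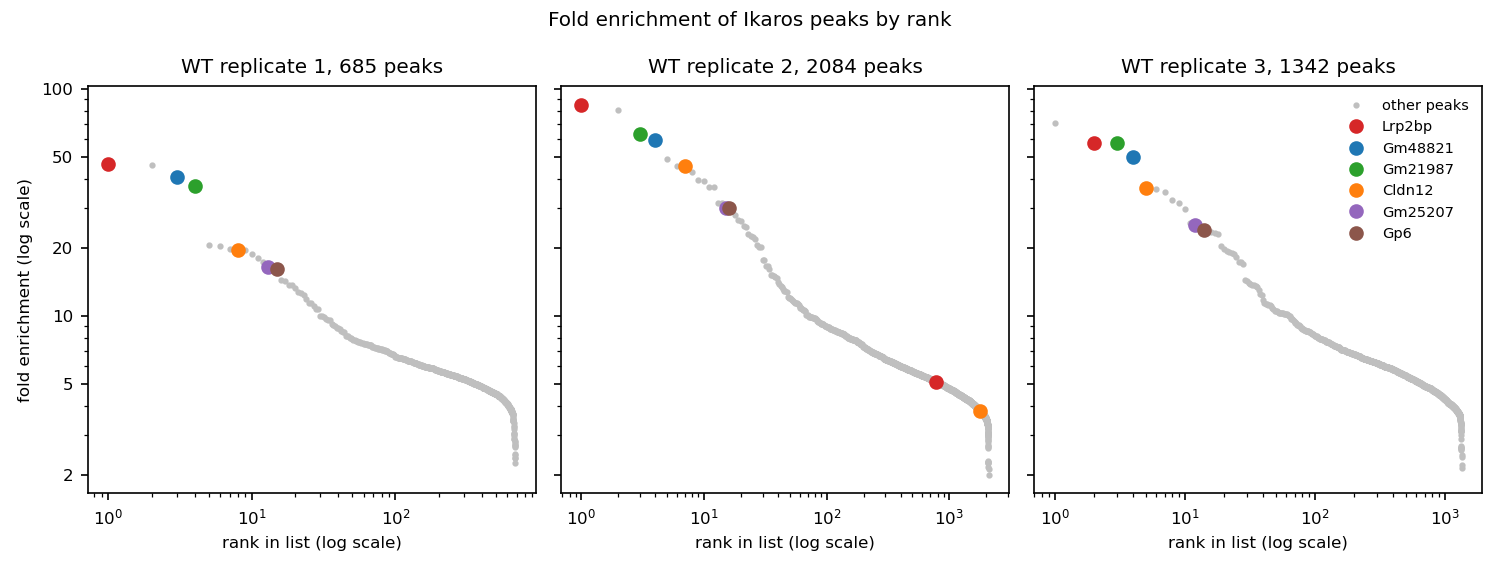
Fold enrichment (log scale) against rank (log scale) for every peak of WT replicates 1, 2 and 3, with peaks named for the 6 genes in colour and all others in grey. The 6 strong sites sit between ranks 1 and 16 in every list, and the weak Lrp2bp and Cldn12 peaks of replicate 2 sit at ranks 772 and 1773.

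The site named for Cldn12, a claudin of tight junctions, lay on chromosome 5, 5490324 to 5491186. Its fold enrichments were 19.5, 45.7 and 36.5 in replicates 1, 2 and 3, at ranks 8, 7 and 5. The site named for Gm25207, a small nuclear RNA gene, lay on the X chromosome, 15640286 to 15641170, with 16.5, 30.0 and 25.2 at ranks 13, 15 and 12. The site named for Gp6, the platelet collagen receptor glycoprotein VI, lay on chromosome 7, 4354884 to 4355498, with 16.0, 29.8 and 24.0 at ranks 15, 16 and 14. Gm25207 and Gp6 were the weakest of the 6 in every list, and their peaks were 1 or 2 ranks apart. The order Lrp2bp first, Cldn12 after Gm48821 and Gm21987, then Gm25207 and Gp6 was the same in each list.

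As a mean over the lists, fold enrichment stood at percentile 99.98 ± 0.043 for Lrp2bp, 99.8 ± 0.074 for Gm48821 and 99.8 ± 0.18 for Gm21987 (SD, n = 3 each; 100 is the strongest peak). It stood at 99.5 ± 0.42 for Cldn12, 98.9 ± 0.59 for Gm25207 and 98.8 ± 0.70 for Gp6. Neighbours in this order from Gm48821 to Gm21987, and from Gm25207 to Gp6, lay closer together than either of their SDs. From Gm21987 to Cldn12, and from Cldn12 to Gm25207, the gap was smaller than the larger SD alone. These SDs also carry the different lengths of the lists, and within each list Gm25207 ranked above Gp6. All 6 strong sites were in all 3 lists, which is how they were chosen. Of all peaks, 73.1%, 24.0% and 37.3% in replicates 1, 2 and 3 had a partner in both other lists. In the strongest 1% of a list, which holds 0.876%, 0.960% and 0.969% of its peaks, were 3, 6 and 5 peaks of these sites. The Gp6 peaks were outside that limit in replicates 1 and 3, and those of Cldn12 and Gm25207 in replicate 1.

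The choice took the 15 regions with the highest mean percentile in all lists, and Gp6, with a mean percentile of 98.8, was the last of the 15. The next region of any kind, inside Bbs7, had a mean percentile of 98.6 and was enriched 13.7, 31.4 and 23.5 fold in replicates 1, 2 and 3. The next regions outside protein-coding genes were in places 18, 19 and 24. The first was 21.4 kb from Fam111a on chromosome 19, with 13.7, 31.5 and 23.1. The second was 165 kb from Zfp521 on chromosome 18, with 14.4, 26.4 and 18.9, and the third was 526 kb from Nr2f2 on chromosome 7, with 11.4, 20.5 and 18.2. In replicate 2 the Bbs7 and Fam111a regions had higher fold enrichments than Gp6, so the boundary falls within a continuous range.

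The 2 weak regions were found in replicate 2 alone. The weak peak named for Lrp2bp, on chromosome 8, 45999918 to 46000141, had a fold enrichment of 5.14 and a −log10 q of 4.46, at rank 772 of 2084. It overlapped Ankrd37, an ankyrin repeat gene known as a target of the hypoxia factor HIF-1. Its midpoint was 0.180 kb from a listed start of Ankrd37, and the authors' list names Ankrd37 for it as well. The authors' distance of this peak to Lrp2bp was 0, while by RefSeq Lrp2bp lay 10.4 kb away. The weak peak named for Cldn12, on chromosome 5, 5514328 to 5514966, had 3.83 and a −log10 q of 1.79, at rank 1773. It lay inside the RefSeq span of Cldn12, with its midpoint 0.142 kb from a Cldn12 start. Read counts are not part of the lists, so the absence of both peaks from replicates 1 and 3 cannot be told from a lack of depth.

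Where the sites lay was compared between the authors' columns and RefSeq gene spans. By RefSeq, all 6 strong sites were outside protein-coding genes, as were 28.0% of regions in all lists; location also chose the sites. By the authors' columns, 4 of the 6 were outside, since Gm21987 and Cldn12 are given there as protein-coding genes at a distance of 0 in every list. For Cldn12 the RefSeq span ends 13.8 kb from the site, and no gene of the name Gm21987 was in the RefSeq table used here. Counting the weak peaks, 2, 4 and 2 member peaks had a distance of 0 in replicates 1, 2 and 3, against 73.7%, 71.8% and 78.2% of all peaks. The name "outside coding gene bodies" thus holds by RefSeq and not by the authors' annotation for these 2 sites.

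The Lrp2bp site lay between the far ends of a pair of genes that are read towards each other. The authors' distance to Lrp2bp was 1323, 1225 and 1258 bp in replicates 1, 2 and 3. By RefSeq, Lrp2bp, on the plus strand, ended 1.23 kb to the left of the site. Snx25, a sorting nexin gene on the minus strand, had its span 1.65 kb to the right, with its start on the far side. The nearest listed start, that of Lrp2bp, was 20.6 kb from the midpoint. A weaker region in all lists lay 121 kb away, over the RefSeq start of Snx25, with fold enrichments of 6.77, 6.86 and 6.08. The authors' lists name Cfap97 and Gm15634 for it, and not Snx25.

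The Gp6 site had the same arrangement, between Ncr1 and Gp6. The authors' distance to Gp6 was 8526, 8466 and 8502 bp in replicates 1, 2 and 3. By RefSeq, Gp6, on the minus strand, lay 7.36 kb to the right of the site. Ncr1, which encodes NKp46 and is on the plus strand, ended 9.70 kb to the left. The starts of Ncr1 and Gp6 were 17.5 and 42.6 kb from the midpoint. The KO design deletes Ikzf1 in cells that express NKp46, and the authors' column does not name Ncr1 at this site.

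The Gm21987 site was the closest of the 6 to a RefSeq protein-coding gene, 0.304 kb from Cox17, which encodes a copper chaperone for cytochrome c oxidase. The promoter table used here lists no start for Cox17, so whether the near end is its start was not determined. The nearest listed start was that of Popdc2, a Popeye domain gene, 8.80 kb from the midpoint. The Cldn12 site lay within the span of the lncRNA Gm30325, between Pttg1ip2 at 11.2 kb and Cldn12 at 13.8 kb. Starts of Gm30325 and Pttg1ip2 were both 11.6 kb from the midpoint, and that of Cldn12 was 24.0 kb away.

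The Gm48821 and Gm25207 sites were far from any protein-coding gene. Authors' distances were 45774, 45743 and 45747 bp to Gm48821 in replicates 1, 2 and 3, and 44191, 44114 and 44171 bp to Gm25207. By RefSeq, the closest gene to the Gm48821 site was the pseudogene Gm8228, at 1.24 kb. The closest protein-coding gene was Tent5a, a non-canonical poly(A) polymerase, at 349 kb. A region 357 kb from this site, 1.22 kb from Tent5a and named Fam46a by the authors, was enriched 8.60 and 6.98 fold in replicates 2 and 3. For the Gm25207 site the closest protein-coding gene was Cypt1, which encodes a protein of the sperm head, at 882 kb. The nearest other region of any list was 2179 kb from that site.

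**Figure D2:**
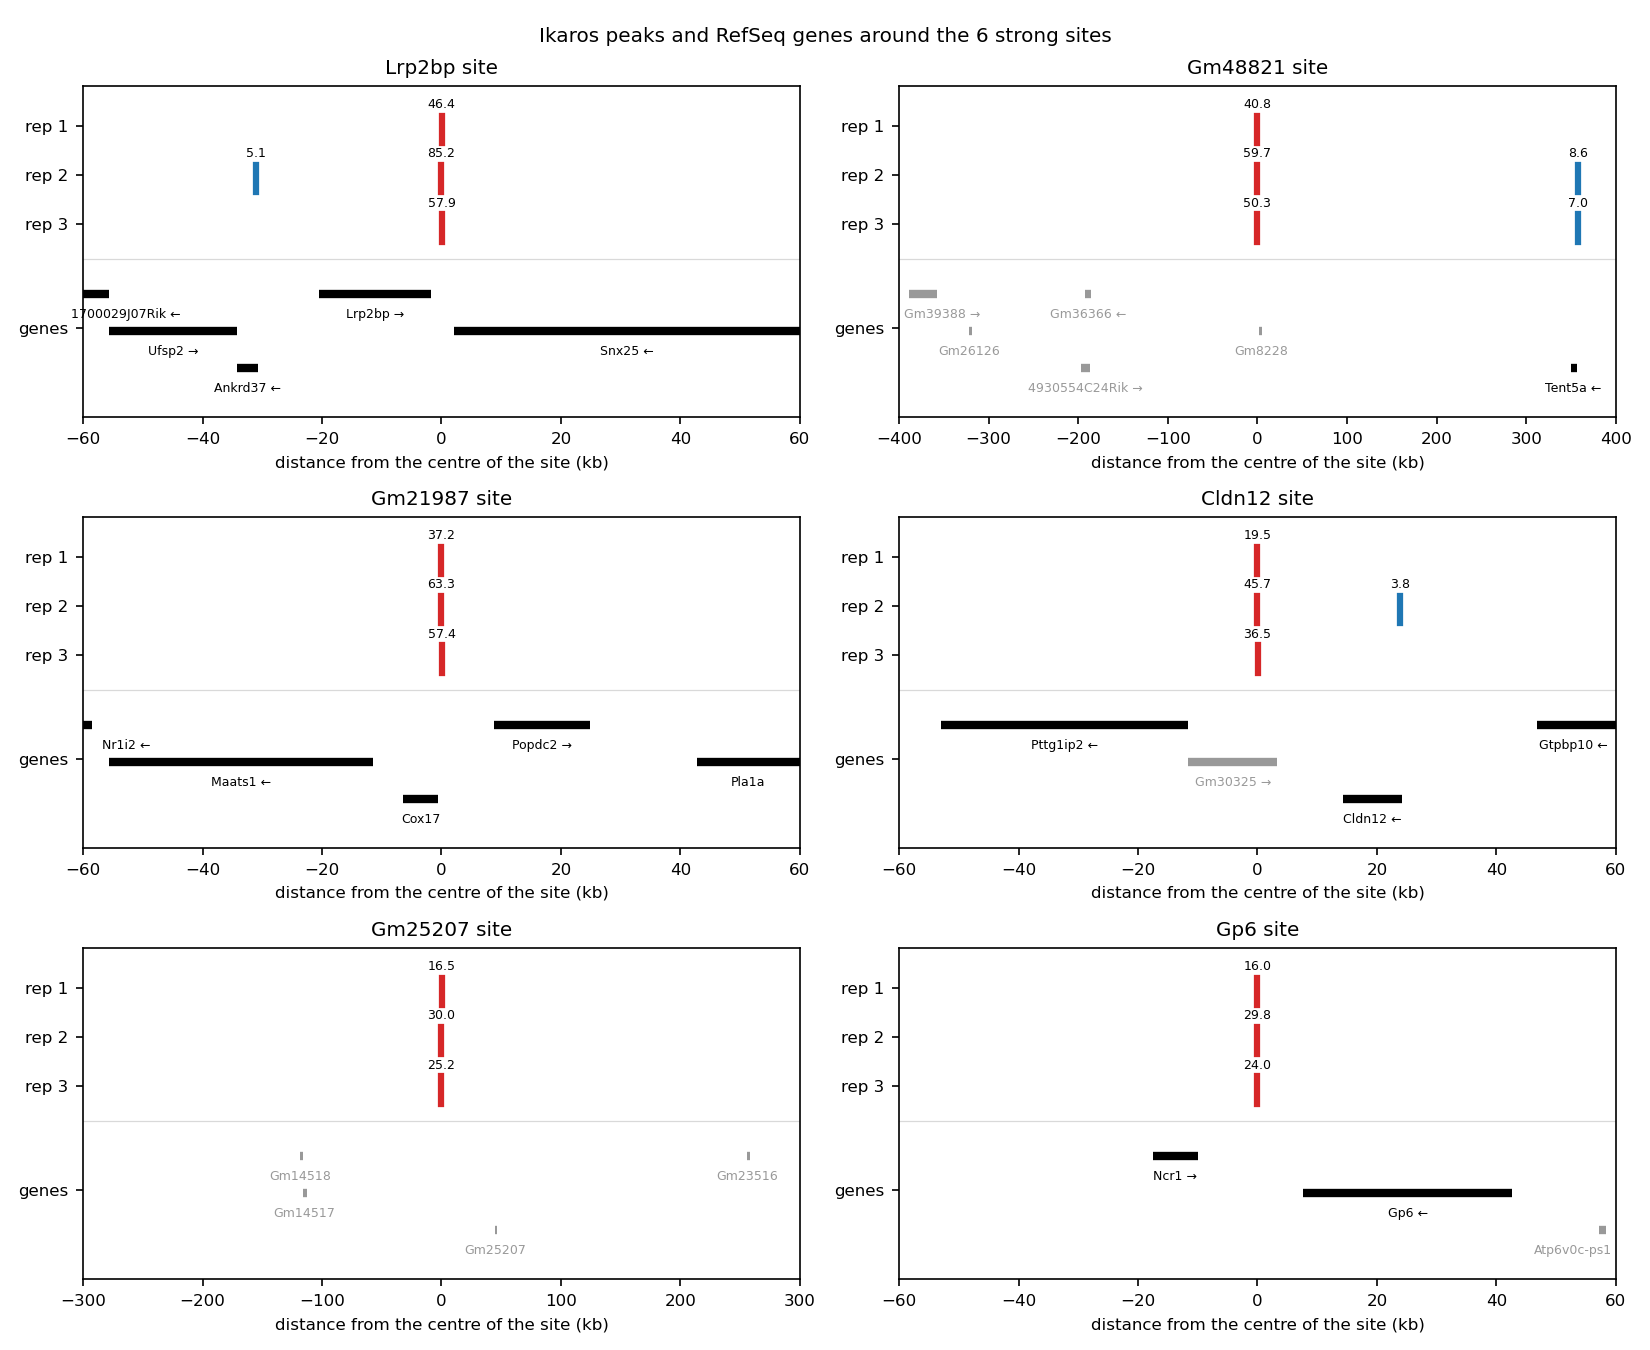
Maps of the 6 sites, with distance from the centre of the site in kb on the x axis, peaks of WT replicates 1, 2 and 3 in the upper rows with their fold enrichment, and RefSeq genes below (black, protein-coding; grey, other; arrows, strand where listed). Red marks are the strong sites and blue marks other peaks. The Lrp2bp and Gp6 sites lie between convergent genes, and the Gm25207 panel, drawn to 300 kb on each side, holds no protein-coding gene, the closest being Cypt1 at 882 kb.

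No other region of any list lay within 100 kb of 4 of the 6 sites, Gm48821, Gm21987, Gm25207 and Gp6. That held for 66.4% of regions in all lists, which is near the share among the sites. The 2 exceptions were the Lrp2bp and Cldn12 sites, whose neighbours at 30.6 and 23.1 kb were the weak peaks of replicate 2. When neighbours in all lists alone were counted, all 6 sites stood alone, as did 90.2% of regions in all lists.

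Midpoints of the peaks at a site lay within 36 bp of each other at 5 of the 6 sites, while widths differed more between lists. Widths were 630, 646 and 636 bp at the Gm21987 site in replicates 1, 2 and 3, and the midpoints there lay within 2 bp. At the Gp6 site widths were 501, 615 and 542 bp, with midpoints within 3.5 bp. Midpoints lay within 25, 33.5 and 36 bp at the Gm25207, Cldn12 and Lrp2bp sites. At the Gm48821 site they spanned 147 bp, because the replicate 1 peak, 849 bp wide, ended up to 325 bp before those of replicates 2 and 3, which were 1205 and 1165 bp wide. Midpoints within 50 bp were thus found at 5 of the 6 sites, and at 51.4% of regions in all lists.

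The peaks were wide within their lists. At the Lrp2bp site widths were 769, 893 and 878 bp in replicates 1, 2 and 3. At the Cldn12 site they were 792, 863 and 837 bp, and at the Gm25207 site 695, 885 and 785 bp. The median peak widths of the lists were 281, 292.5 and 294 bp. The Lrp2bp, Gm48821, Cldn12 and Gm25207 peaks reached the 90th percentile of width in each list, 4 peaks in each, against 10.1% of all peaks. The Gm21987 and Gp6 peaks did not. Width comes from the same calls as fold enrichment, so nothing further is read from these counts.

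**Figure D3:**
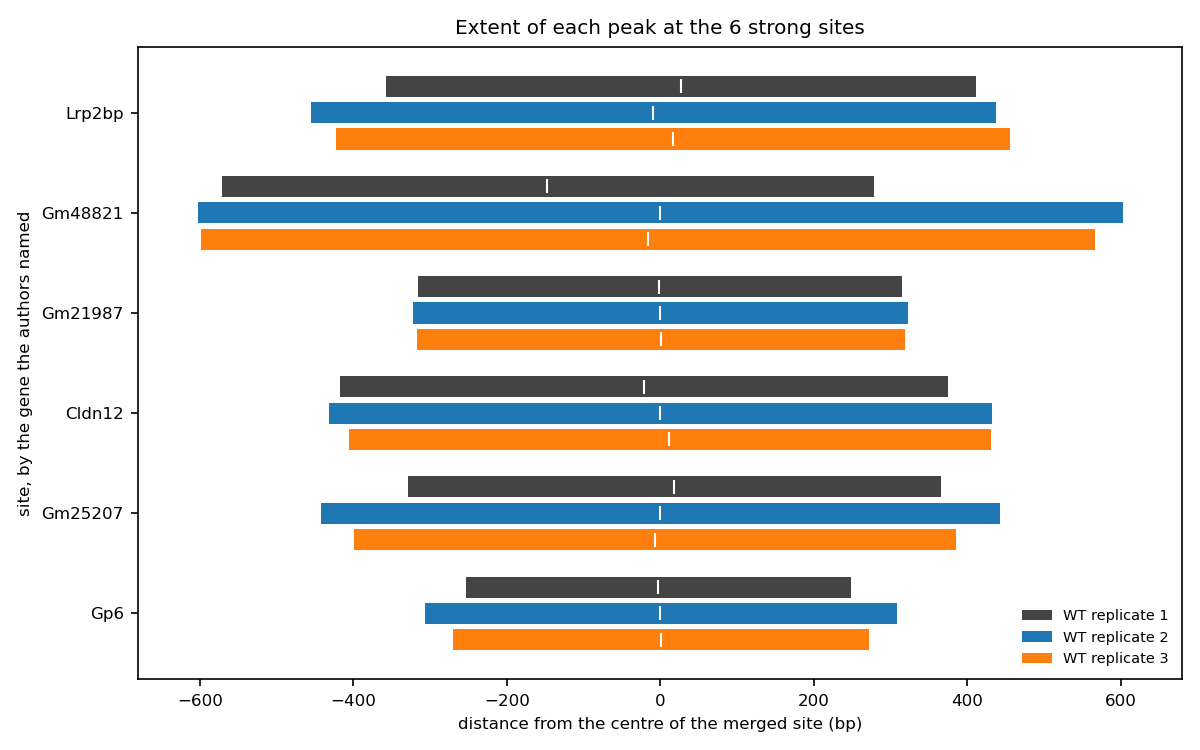
Extent of each peak in bp around the centre of the merged site, for the 6 sites and WT replicates 1, 2 and 3, with a white tick at each midpoint. Midpoints lie within 36 bp at every site except Gm48821, where the replicate 1 peak is shorter on the right.

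Of the 15 strongest regions in all lists, the other 9 lay inside protein-coding genes, and these were the most similar sites for comparison. Median fold enrichments were 28.4 at the 6 sites outside and 19.5 at the 9 inside in replicate 1. They were 52.7 outside and 39.7 inside in replicate 2, and 43.4 outside and 31.4 inside in replicate 3. The ranges overlapped in every list, from 16.0 to 46.4 outside and 14.2 to 46.2 inside in replicate 1, for example. Median widths were 732, 874 and 811 bp outside and 586, 683 and 673 bp inside. The widest peaks of the 15 were at the Snx29 site inside, at 1847, 2065 and 1933 bp. Both sets were chosen on fold enrichment, so no test was made.

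**Figure D4:**
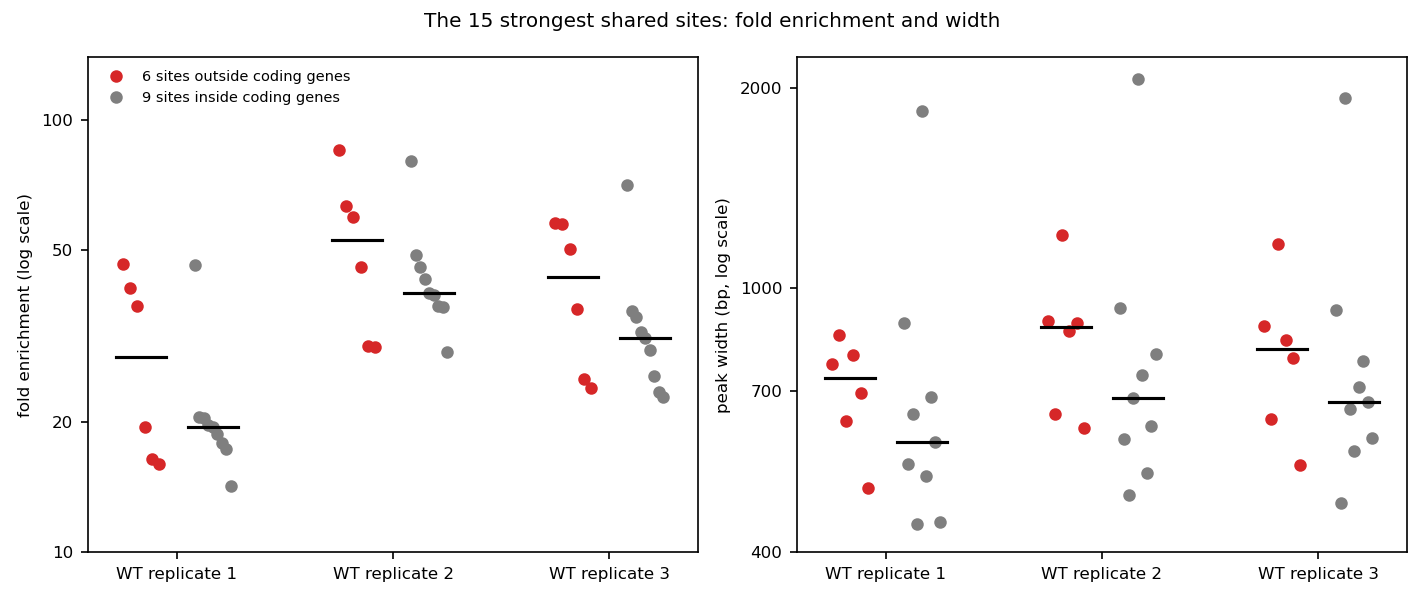
Fold enrichment (left, log scale) and peak width in bp (right, log scale) for the 6 sites outside and the 9 sites inside protein-coding genes in each WT replicate. Points are single peaks and lines are medians, and the 2 sets overlap in every replicate.

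Every one of the 6 sites had its midpoint over 1 kb from a start listed in RefSeq, from 8.80 kb at the Gm21987 site to 882 kb at the Gm25207 site. That was so for 48.5% of the 480 regions in all lists on chromosomes with listed starts. It was also so for all 8 of the inside sites that had a listed start, at 19.8 to 92.7 kb. The sites were chosen partly by location, so these distances describe them. The Gm21987 distance leaves out Cox17, for which no start was listed.

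**Figure D5:**
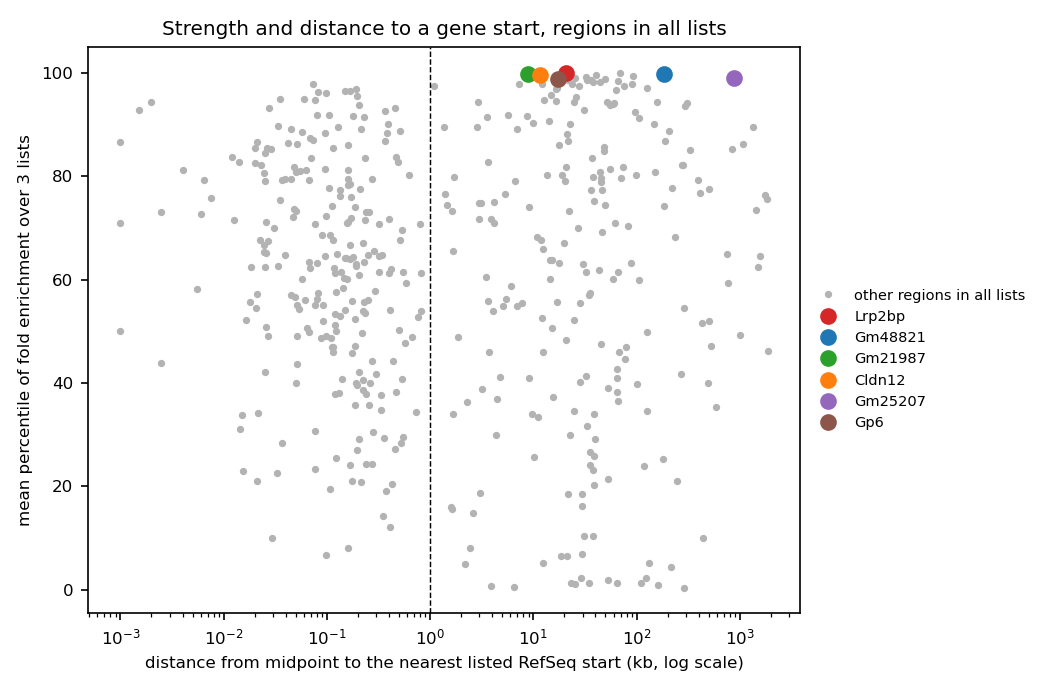
Mean percentile of fold enrichment over the 3 WT lists against how far each region's midpoint was from the nearest listed RefSeq start (kb, log scale), for 480 regions in all lists. The 6 sites are at the top, to the right of the dashed line at 1 kb, between 8.80 and 882 kb.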

How the data were processed

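Peak lists of 3 WT libraries were analysed. The peak names show a separate call for each library. WT replicate 3 by its title is library 4 in the authors' description and R4 in the peak names, and the lists were matched to samples through that number. MACS2, Subread, SAMtools, Picard and edgeR 3.20.0 stand in the submitters' processing notes, with build mm10 and no stated roles. The control, thresholds and gene annotation are not given in the sources used here, and a different control could change the fold enrichments, which was not tested. Per the file headers, the authors deposited a fold enrichment (a linear ratio), the −log10 p and −log10 q, and a score for each peak; the score was not used. Read depth is unknown.

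Rows, 1 per gene, were reduced to 1 per peak (800, 2414 and 1595 rows to 685, 2084 and 1342 peaks). Peak numbers missing from the lists, 41, 50 and 42, were not analysed here. Peaks sharing at least 1 bp were merged into regions. Ranks of fold enrichment were taken within a list. Gene spans and starts came from RefSeq tables of the same build, and the table of starts used here listed none on chromosome 18. No test was run, since fold enrichment and location chose the sites. By rule, the text could name the 6 genes, neighbours of their sites, the 9 inside sites and the next 3 outside. Of the inside sites only Tiam1 and Snx29 are named and the rest are summarised. Bbs7, the first region after the 15 strongest, was named after its values were seen. Members and lists were chosen with earlier results of these data known. Python 3.11.15, NumPy 2.4.6, pandas 2.3.3 and matplotlib 3.10.9 were used, and merging, ranking and motif search were checked on simulated data.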

Additional observations from a re-analysis of the deposited data

How the results depend on the processing

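No paired analysis was possible because every list came from WT cells, with KO libraries not analysed here. The 6 sites were chosen as strong in all lists, with ranks of 16 or better and a −log10 q of at least 35.2. A −log10 q limit of 5 or 10, equal list lengths or leaving out a list could thus remove none of them, and that count of 6 says nothing about stability. It was also 6 under both stricter overlap rules. Peaks in the strongest 1% of a list numbered 14, against 13 by −log10 p or −log10 q and 16 over the rows as deposited. Without 1 replicate they ranged from 8 to 11, as fewer lists were counted, and were 8 without replicate 2 and 9 without replicate 3. With equal list lengths the mean percentile was 99.6 for Gm48821, 98.2 for Gm25207 and 98.0 for Gp6, each lower by more than 1 SD, since shorter lists lower a percentile by construction. Peaks at an authors' distance of 0 numbered 8, and 4 to 6 without 1 replicate, 4 of them without replicate 2, whose list holds both weak peaks. Sites outside protein-coding genes numbered 4 by the authors' columns and 6 by RefSeq spans. Sites with no other region within 100 kb numbered 4, and 6 without replicate 2 or with neighbours in all lists alone. The 50 kb window, neighbours in all lists alone, and leaving out replicates for neighbours, width, midpoints and distance were chosen after seeing the data. Depth is unknown, so weak neighbours missing from a list are not shown to be unbound.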

Other observations

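Across the 500 regions in all lists, closeness to a gene start differed with place in the ranking by mean percentile. Of the 15 strongest, 0 of the 14 with starts listed on their chromosome had a midpoint within 1 kb of one. That share was 33.3% in places 16 to 50, 46.9% in places 51 to 100, 58.5% in places 101 to 250 and 53.6% in places 251 to 500. Within the last group, places 481 to 500 lay 2.19 to 291 kb from a start wherever one was listed on their chromosome. The share thus did not rise steadily toward the weak end of the ranking. The share outside protein-coding genes showed no steady order, at 40.0%, 28.6%, 40.0%, 20.7% and 29.2% in the same groups of places. At the end of the last group, places 489 to 495, 498 and 500 were outside, and places 496, 497 and 499 were inside. These are descriptions, since the ranking chose the first 15, and starts missing from the table, such as that of Cox17, could change the first share.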
